A study of Homo sapiens with 9 samples.

Results

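The genes described here belong to families of secreted and cell-surface proteases, many of which cut the extracellular matrix, and to families of protease inhibitors. They were taken by symbol alone: every gene whose symbol begins with MMP and a digit, ADAMTS, TIMP and a digit, SERPIN or SPINK, plus PLAU, PLAT and PLAUR. On the array, 95 of the 18132 genes with a probe set of their own met this rule. They were 22 matrix metalloproteinases (MMPs), 18 ADAMTS proteases, 6 ADAMTS-like genes, 4 TIMPs, 3 genes of the plasminogen activator system, 33 serpins and 9 SPINK genes. Taken by symbol, they include intracellular serpins such as SERPINB1, the chaperone SERPINH1, the antisense RNA ADAMTSL4-AS1 and the pseudogenes SERPINB9P1 and SERPINA13P. The signal of 39 of the 95 lay above the brightness filter, set at the dimmest 40% of probe sets (a mean of 4.74 log2 units over all arrays), and only these 39 entered the tests.

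The study asked how hepatoma cells made resistant to insulin respond to soluble insulin and to a biomineralized preparation of it (labelled BI). By the treatment protocol all 3 groups were R-HepG2 cells, described as an insulin-resistant derivative of the human liver cancer line HepG2. They were kept overnight in serum-free DMEM and then given DMEM alone (the medium group), insulin in solution (the insulin group) or biomineralized insulin, the latter both at 40 µg/ml, for 4 h, with 3 arrays per group. The labels disagree on the line: its tag is R-HepG2 in the medium group but HepG2 in both treated groups, whereas the treatment protocol puts R-HepG2 in all of them; no untreated parental HepG2 group and no group with the mineral alone was analysed here. The labels do not say whether the 3 replicates of a group were separate cultures, so the p-values measure the spread between these arrays, which may be technical.

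Total RNA was labelled by a 3′ method and hybridized to 1-colour Affymetrix arrays, whose number limits the precision. The deposited values are log2 signals with array medians of 5.46 to 5.50, and all changes below are differences of log2 signal. Defining hepatocyte genes were dim: 16 of 18 listed markers were on the array, 4 of them above the filter, and albumin (ALB), at 3.40, was brighter than 17.2% of probe sets. AFP (2.93) and APOB (2.78) were dimmer still. Most listed hepatocyte markers thus do not bear out the liver line named in the labels, and the identity of the cells was not tested. Of the markers of lung epithelium 7 of 10 were above the filter, of general epithelium 5 of 8 (KRT18 at 12.4, but EPCAM at 3.24, CDH1 at 3.61 and ESRP1 at 3.08), of fibroblasts 5 of 8 and of blood and endothelium 5 of 8. The summed hepatocyte markers spanned 64.6 to 66.4 log2 units on the medium arrays, 64.8 to 65.8 on the insulin arrays and 65.0 to 65.7 on the biomineralized insulin arrays. The summed general epithelium markers spanned 55.1 to 55.9, 55.2 to 56.1 and 56.5 to 56.7, and those of lung epithelium 52.9 to 54.4, 53.6 to 53.8 and 54.5 to 55.0; their part in the results was not tested. In the general epithelium list the mean of KRT8 went from 9.65 in medium to 10.7 with biomineralized insulin, while that of KRT7 went from 12.1 to 11.9. The 3′ minus 5′ signal of the GAPDH control, a sign of RNA integrity, was 0.16 ± 0.04, 0.17 ± 0.0045 and 0.20 ± 0.02 (SD, n = 3) in the same order of groups. For GAPDH the biomineralized insulin arrays (0.175 to 0.210) lay above the insulin arrays (0.163 to 0.171) without overlap. The 3′ minus 5′ signal of the actin control was 3.02 ± 0.06, 3.19 ± 0.08 and 3.07 ± 0.10. For actin the insulin arrays (3.11 to 3.27) lay above the medium arrays (2.96 to 3.08) without overlap. The part of these differences in the results was not tested. In bulk RNA, fewer cells of a kind and less RNA per cell cannot be told apart.

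Proteolysis outside the cell is a balance of enzymes and inhibitors. MMPs and ADAMTS enzymes are zinc metalloproteases that cleave collagens, proteoglycans and other matrix proteins, and the TIMPs bind and block them. PLAU and PLAT turn plasminogen into plasmin, a serine protease, PLAUR holds PLAU at the cell surface, and serpins inhibit such serine proteases by a suicide mechanism; SPINKs are small Kazal-type inhibitors of trypsin and kallikreins. Hepatocytes are the main source of the serpins of blood plasma, such as alpha-1-antitrypsin (SERPINA1) and antithrombin (SERPINC1).

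Promoter sequences were available from RefSeq (GRCh38.p14) for 67 of the 95 genes and for 27 of the 39 tested. The 250 bases before the start are shown 5′ to 3′ for the genes whose signal moved most among those with an entry (SPINK6, SPINK1, TIMP4 and ADAMTS6) and for SERPINH1, the only tested member with a heat shock element in its window; capitals mark the letters of a motif match.

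SPINK6, chr5:148202528-148202777, plus strand: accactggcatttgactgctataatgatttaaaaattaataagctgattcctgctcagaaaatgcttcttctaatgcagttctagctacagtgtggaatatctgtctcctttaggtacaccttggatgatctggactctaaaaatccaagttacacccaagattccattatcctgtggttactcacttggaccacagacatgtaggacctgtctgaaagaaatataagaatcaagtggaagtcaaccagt

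SPINK1, chr5:147831672-147831921, minus strand: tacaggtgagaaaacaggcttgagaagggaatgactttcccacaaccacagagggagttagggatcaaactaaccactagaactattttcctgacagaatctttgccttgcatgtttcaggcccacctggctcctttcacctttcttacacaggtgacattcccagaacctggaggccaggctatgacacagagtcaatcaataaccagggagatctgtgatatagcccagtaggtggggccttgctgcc

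TIMP4, chr3:12158913-12159162, minus strand: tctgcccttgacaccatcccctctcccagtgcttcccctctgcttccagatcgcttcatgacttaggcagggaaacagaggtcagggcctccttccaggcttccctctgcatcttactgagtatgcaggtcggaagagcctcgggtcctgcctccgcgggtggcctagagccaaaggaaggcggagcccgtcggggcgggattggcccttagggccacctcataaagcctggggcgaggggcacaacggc

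ADAMTS6, chr5:65481921-65482170, minus strand: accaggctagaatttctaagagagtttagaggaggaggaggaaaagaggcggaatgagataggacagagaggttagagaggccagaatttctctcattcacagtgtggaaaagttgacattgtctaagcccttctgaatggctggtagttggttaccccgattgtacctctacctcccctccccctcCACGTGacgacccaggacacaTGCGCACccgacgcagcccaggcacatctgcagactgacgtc

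SERPINH1, chr11:75562003-75562252, plus strand: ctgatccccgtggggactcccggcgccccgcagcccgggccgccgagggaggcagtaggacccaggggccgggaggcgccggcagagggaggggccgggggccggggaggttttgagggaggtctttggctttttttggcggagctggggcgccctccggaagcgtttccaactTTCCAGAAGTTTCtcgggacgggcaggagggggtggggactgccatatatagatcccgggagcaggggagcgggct

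Searched on both strands were 6 kinds of motif: the heat shock element (3 GAA units in alternating orientation, each 2 bases from the next), the AP-1 site (TGANTCA), the composite site of ATF4 and CHOP (TGATGNAAT), the core of the metal response element (TGCACNC or TGCGCNC), the TATA box (TATAAA) and the E-box (CACGTG). The SERPINH1 window holds TTCCAGAAGTTTC 76 to 64 bases before the start, a heat shock element, which 0.442% of all 35097 windows of this length hold. The ADAMTS6 window holds an E-box 63 to 58 bases before the start, found in 6.34% of windows, and a metal response core (TGCGCAC) 42 to 36 bases before it, found in 24.8%. No match to any of these motifs lay in the windows shown for SPINK6, SPINK1 and TIMP4. SPINK6 and SERPINH1 each have another window, not shown, which held no match. The 27 tested genes with an entry have 31 windows. An AP-1 site, present in 6.57% of all windows, lay in 4 of the 31 (PLAUR, SERPINB5, SERPINB8 and SPINK13). The ATF4 and CHOP site, present in 0.889%, lay in 0 of 31. A TATA box lay in 4 of the 31, against 10.7% of all windows.

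**Figure D1:**
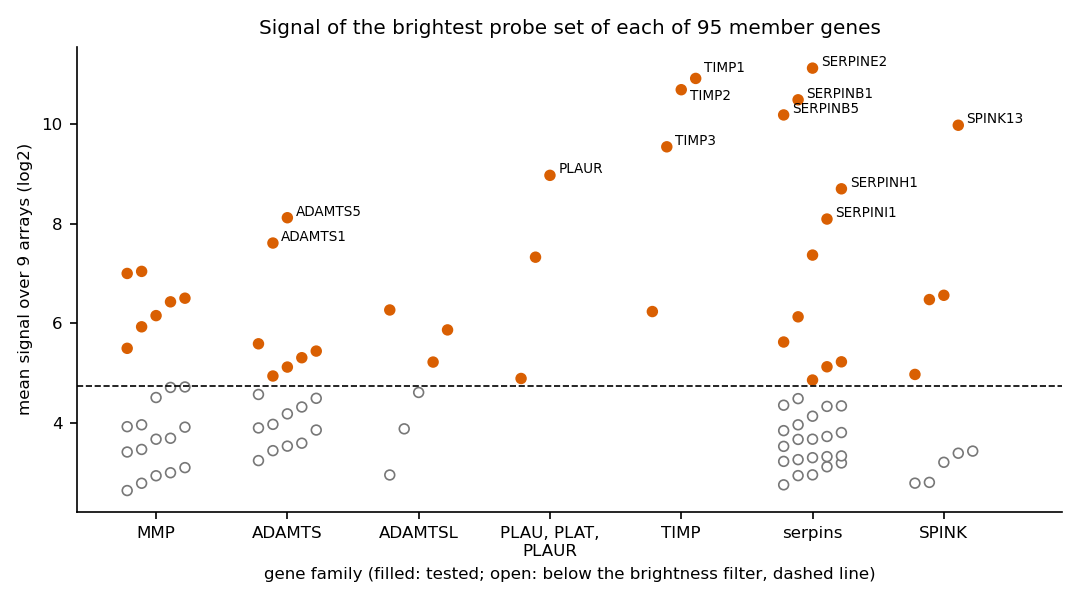
Mean log2 signal over 9 arrays (vertical axis) of the brightest probe set of each of the 95 genes, by family (horizontal axis). Filled circles are the 39 genes above the filter (dashed line, 4.74) and open circles the 56 below it; signals of different probe sets do not rank transcripts, since probes differ in how well they bind.

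Biomineralized insulin moved these genes in both directions, and most of all in 2 inhibitors and 2 ADAMTS proteases. SPINK6 and ADAMTS1 rose by 3.17-fold and 2.08-fold against medium, while ADAMTS6 and TIMP4 fell by 2.58-fold and 1.87-fold. In all, 12 of the 39 tested members were higher and 12 lower (limma, adjusted p under 0.05 over all 12239 tested genes), so that 61.5% of them were called where 50.9% of all genes were (25.7% higher and 25.2% lower). The arrays of the groups did not overlap for 27 of the 39 members, against 56.6% of all genes. A change of at least 1.5-fold was found for 7 of 39 members, against 7.11% of all genes. The median absolute change was 0.27 over the members and 0.16 over all genes, and the median signed change 0.03 and 0.02.

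The split between higher and lower depends on how the arrays are scaled. The 24 poly-A spike-in features were brighter by 0.40 on the biomineralized insulin arrays (7.62 ± 0.16, SD, n = 3) than on the medium arrays (7.22 ± 0.07, SD, n = 3), and centring on them lowers each change against medium by that amount. The median of all genes then lies at −0.38, and the members called become 2 higher and 25 lower. That is 69.2% of the members against 76.7% of all genes, so that the members' share, above that of all genes in the deposited scaling, is then below it. SPINK6 (1.26) and ADAMTS1 (0.65) are the 2 that stay higher. The value of ADAMTS1 is that of its brightest probe set. Its other one, at 0.53 in the deposited scaling, was not fitted with this centring. Of the other 10 genes higher in the deposited scaling, 7 turn to the other side of zero, as stated for each below. The cause of the difference in the spike-in features was not tested.

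**Figure D2:**
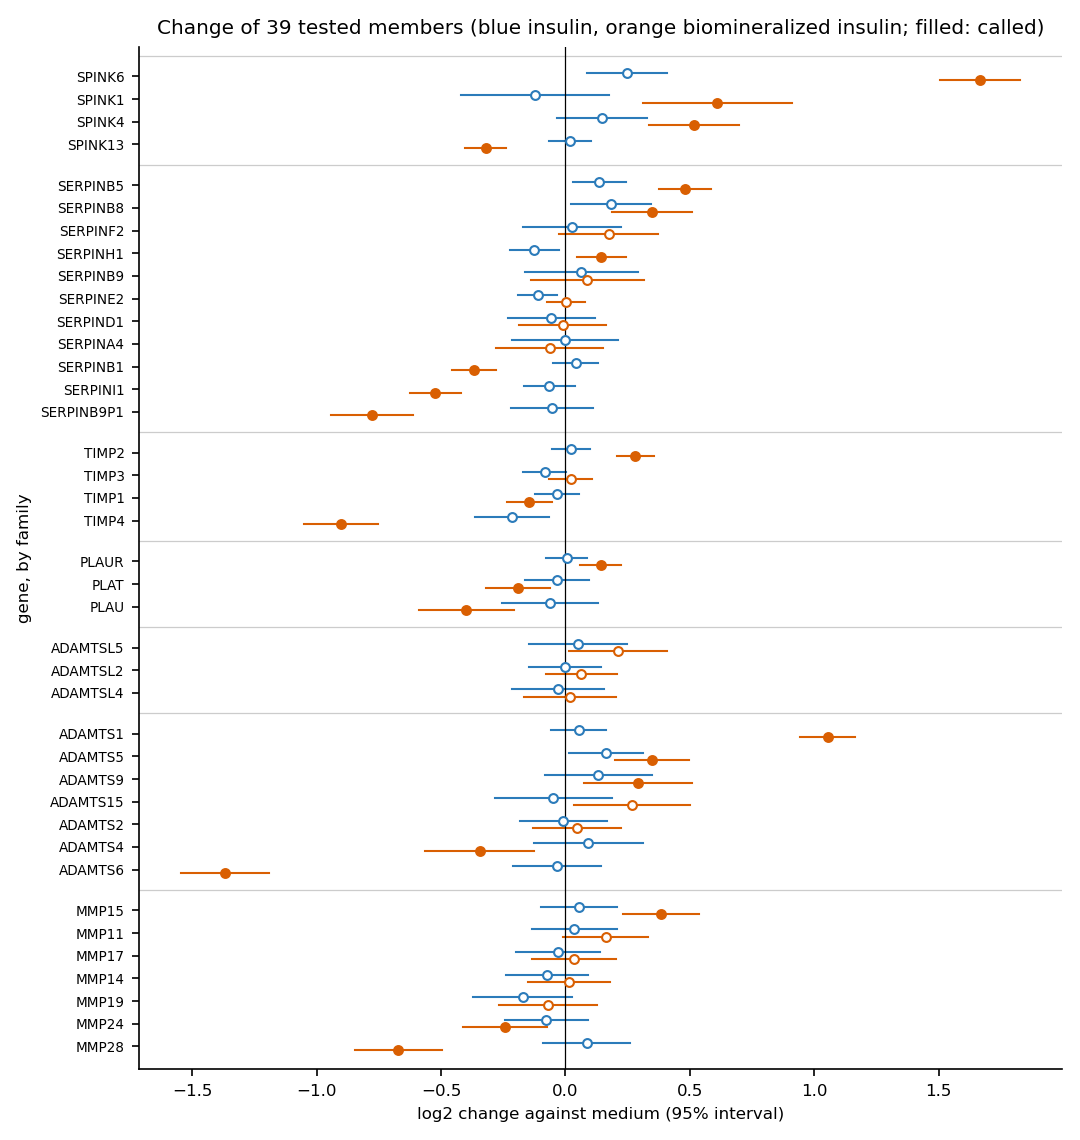
Log2 change against medium (horizontal axis) of each of the 39 tested genes, by family, after insulin (blue) and biomineralized insulin (orange). Points are limma estimates, bars their 95% intervals, and filled points were called at an adjusted p under 0.05: 0 for insulin and 24 for biomineralized insulin, 12 on each side of zero; centring on the spike-in features would move every orange point left by 0.40.

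Of the SPINK inhibitors, all 4 tested genes were called with biomineralized insulin against medium, 3 up and 1 down, where 50.9% of all genes were called. With spike-in centring only SPINK6 stayed higher. SPINK6, an inhibitor of kallikreins first known from skin, gave 5.69, 5.91 and 5.92 on the medium arrays, 6.11, 6.03 and 6.12 on the insulin arrays and 7.42, 7.48 and 7.61 on the biomineralized insulin arrays. The 3 groups do not overlap, and the biomineralized insulin arrays stand well above the rest. The change against medium was 1.67 ± 0.08 (SE; adjusted p = 3.1e-11, limma) and that against insulin 1.42 ± 0.08 (2.67-fold), while insulin against medium gave 0.25 (adjusted p = 0.106).

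SPINK1, the pancreatic secretory trypsin inhibitor, read 4.99, 4.76 and 4.68 in medium, 4.46, 5.11 and 4.50 with insulin and 5.49, 5.36 and 5.42 with biomineralized insulin. All 3 biomineralized insulin arrays lie above the other 6, whose values straddle the filter and whose insulin mean of 4.69 falls below it. The rise against medium was 0.61 ± 0.14 (SE; 1.53-fold; limma adjusted p = 0.0016), and it fell to 0.21 and was no longer called after spike-in centring (adjusted p = 0.14, within a range of 5.8e-05 to 0.14 over 18 alternatives). SPINK4, named after its values were seen like all further genes outside the 7 of at least 1.5-fold and the ones fixed in the rule, rose by 0.52 (6.19, 6.35 and 6.49 in medium against 6.97, 6.72 and 6.88), or 0.11 and not called with spike-in centring. SPINK13 went the other way: 10.07, 10.13 and 10.04 in medium, 10.13, 10.12 and 10.03 with insulin, and 9.76, 9.74 and 9.76 with biomineralized insulin, a fall of 0.32 ± 0.04 (SE).

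SPINK1, SPINK6 and SPINK13 belong to a run of 6 neighbouring SPINK genes, taken as members analysed here and less than 500 kb apart in RefSeq. The other three, SPINK7, SPINK9 and SPINK14, were below the filter, as were SPINK2 and SPINK8. Neighbours thus moved in opposite directions within this run.

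**Figure D3:**
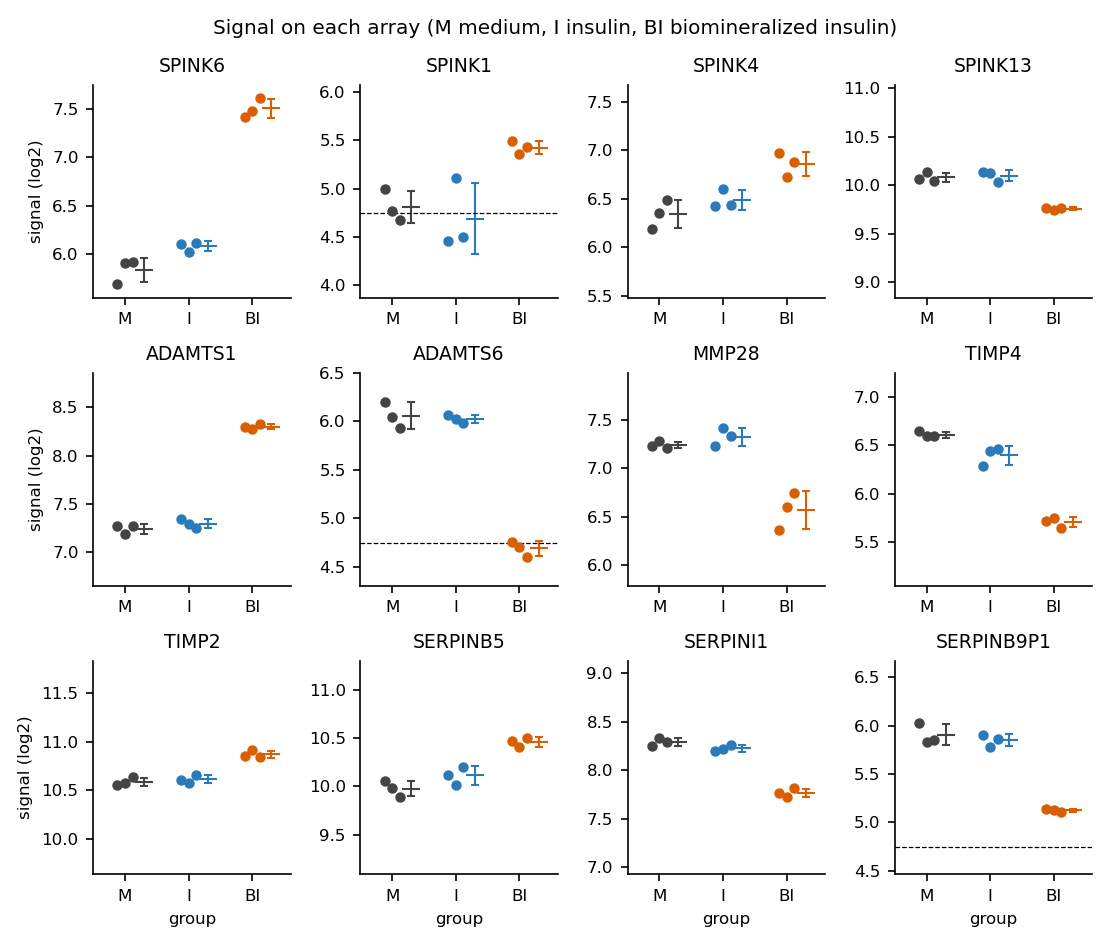
Log2 signal (vertical axes, of equal span and shifted for each gene) on each array for 12 genes in medium (M, grey), insulin (I, blue) and biomineralized insulin (BI, orange); points are arrays, and the bars beside them the mean ± SD of 3 arrays. The dashed line, where in range, is the filter at 4.74. In each panel the BI points lie apart from the medium points. The BI points are higher for SPINK6, SPINK1, SPINK4, ADAMTS1, TIMP2 and SERPINB5 and lower for the others. All 12 genes were called for BI against medium, so the separation in every panel reflects the choice of genes. These 2 groups did not overlap for 27 of the 39 tested members and for 56.6% of all tested genes.

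Of the 7 tested ADAMTS proteases, 3 rose and 2 fell with biomineralized insulin (71.4% called against medium, where 50.9% of all genes were). ADAMTS1, which cleaves the proteoglycans aggrecan and versican, gave 7.27, 7.19 and 7.27 in medium, 7.34, 7.29 and 7.25 with insulin and 8.29, 8.27 and 8.32 with biomineralized insulin. The medium and insulin arrays overlap, and the third group lies a full log2 unit above both. The rise against medium was 1.05 ± 0.05 (SE; limma adjusted p = 8.5e-11), and a second probe set of the gene gave 0.53.

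ADAMTS6 fell by more than any other of the 39 tested members. It gave 6.20, 6.04 and 5.93 in medium, 6.06, 6.03 and 5.98 with insulin and 4.76, 4.71 and 4.60 with biomineralized insulin. The last group, with a mean of 4.69, lies about at the filter and far below the other 6 arrays. The change was −1.37 ± 0.08 (SE; limma adjusted p = 1e-09).

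ADAMTS5, an aggrecanase and the chromosomal neighbour of ADAMTS1, rose by 0.35 ± 0.07 (SE; 8.01, 8.04 and 7.81 in medium against 8.24, 8.46 and 8.19), with 0.33 to 0.53 over its 3 probe sets, but lay at −0.06 with spike-in centring. ADAMTS9, another proteoglycanase, rose by 0.29 ± 0.10 (SE), turned to −0.11 with spike-in centring, and lost its call without the second medium array (limma adjusted p = 0.12), the first biomineralized insulin array (0.090) or the third (0.076), in a range of 0.012 to 0.43 over 18 alternatives. ADAMTS4, also an aggrecanase, read 5.10, 5.32 and 5.20 in medium against 4.79, 4.92 and 4.87, a fall of 0.34 ± 0.10 (SE) that missed the threshold without the second medium array (limma adjusted p = 0.057; 5.2e-08 to 0.057 over 17 alternatives). The 2 other proteases above the filter were not called: ADAMTS2, which trims procollagen, changed by 0.05 and ADAMTS15 by 0.27. None of the 3 tested ADAMTS-like genes (ADAMTSL2, ADAMTSL4 and ADAMTSL5), whose proteins lack the catalytic domain, was called, with changes of 0.02 to 0.21.

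Of the 7 tested MMPs, 1 rose and 2 fell with biomineralized insulin (42.9% called against medium, below the 50.9% of all genes). MMP28, or epilysin, was lower: 7.23, 7.28 and 7.21 in medium and 7.23, 7.41 and 7.34 with insulin against 6.36, 6.60 and 6.74. The biomineralized insulin arrays spread more widely than the others but all lie below them. The change was −0.67 ± 0.08 (SE; 1.59-fold; limma adjusted p = 3.8e-06), whereas the gene's second probe set gave −0.05.

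MMP15, a membrane-type MMP, rose by 0.39 ± 0.07 (SE; 6.73, 6.93 and 6.91 against 7.29, 7.31 and 7.13), or −0.02 with spike-in centring. MMP24, another membrane-type MMP, read 6.53, 6.61 and 6.48 in medium against 6.48, 6.19 and 6.22, groups that touch at 6.48. Its fall of 0.24 ± 0.08 (SE) lost its call without the second medium array, the second biomineralized insulin array or the third (limma adjusted p = 0.071, 0.084 and 0.072; 3.1e-07 to 0.084 over 19 alternatives).

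MMP14, the membrane-type MMP that activates pro-MMP2, gave 5.93, 6.0 and 5.93 in medium, 5.93, 5.93 and 5.77 with insulin and 5.90, 5.90 and 6.09 with biomineralized insulin. The groups overlap, and the change of 0.01 (95% interval −0.15 to 0.18) was not called, though it became −0.39 and called with spike-in centring. MMP11, MMP17 and MMP19 were not called either (−0.07 to 0.16).

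The TIMPs, all 4 above the filter, split: TIMP2 rose, TIMP1 and TIMP4 fell and TIMP3 was not called. That is 75% called against medium, where 50.9% of all genes were. TIMP4, the TIMP most restricted in the tissues that express it, gave 6.65, 6.59 and 6.59 in medium, 6.28, 6.44 and 6.46 with insulin and 5.72, 5.75 and 5.65 with biomineralized insulin. No 2 groups overlap, and the insulin arrays lie between the others. Biomineralized insulin lowered it by 0.90 ± 0.07 (SE; limma adjusted p = 1.7e-08) against medium and by 0.69 ± 0.07 (SE) against insulin, and insulin against medium gave −0.22 (adjusted p = 0.123).

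TIMP2, which both inhibits MMPs and helps MMP14 activate pro-MMP2, read 10.56, 10.57 and 10.64 in medium, 10.61, 10.57 and 10.65 with insulin and 10.85, 10.91 and 10.85 with biomineralized insulin. The rise of 0.28 ± 0.04 (SE; limma adjusted p = 5.6e-06), 0.14 on its other probe set, became −0.12 with spike-in centring.

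TIMP1, the broad inhibitor of secreted MMPs, read 10.95, 10.95 and 11.03 in medium, 10.89, 10.99 and 10.94 with insulin and 10.83, 10.75 and 10.92 with biomineralized insulin. The fall of 0.15 ± 0.04 (SE) is small, 1 of its 3 probe sets moved the other way (0.29), and the call was lost without the second biomineralized insulin array (limma adjusted p = 0.058) or with the mean of probe sets (0.95), in a range of 8.1e-08 to 0.95 over 19 alternatives. TIMP3, which stays bound to the matrix, gave 9.54, 9.54 and 9.61 in medium, 9.44, 9.46 and 9.54 with insulin and 9.59, 9.58 and 9.58 with biomineralized insulin, a change of 0.02 against medium, or −0.38 and called with spike-in centring. Its other probe sets gave 0.05 and −0.21 against medium.

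In the plasminogen activator system both activators fell and the receptor's probe sets disagreed. PLAU, the urokinase, gave 5.16, 4.91 and 5.07 in medium, 5.01, 5.05 and 4.89 with insulin and 4.66, 4.67 and 4.61 with biomineralized insulin. The last group lies under the filter, and the fall was 0.40 ± 0.09 (SE; 1.32-fold; limma adjusted p = 0.0015). PLAT, the tissue-type activator, read 7.51, 7.34 and 7.36 in medium, 7.40, 7.34 and 7.37 with insulin and 7.14, 7.26 and 7.24 with biomineralized insulin. Its fall of 0.19 ± 0.06 (SE) lost its call without the first medium array or the first biomineralized insulin array (limma adjusted p = 0.085 and 0.071; 6.4e-07 to 0.085 over 19 alternatives), and 1 of its 5 probe sets gave 0.17.

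PLAUR gave 8.91, 8.95 and 8.90 in medium, 8.92, 8.93 and 8.94 with insulin and 9.05, 9.06 and 9.08 with biomineralized insulin. The brightest probe set was 0.14 ± 0.04 (SE) higher, but 3 of the gene's 5 probe sets moved the other way, the mean of all 5 changed by −0.01, and spike-in centring gave −0.26. No direction is given for PLAUR.

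**Figure D4:**
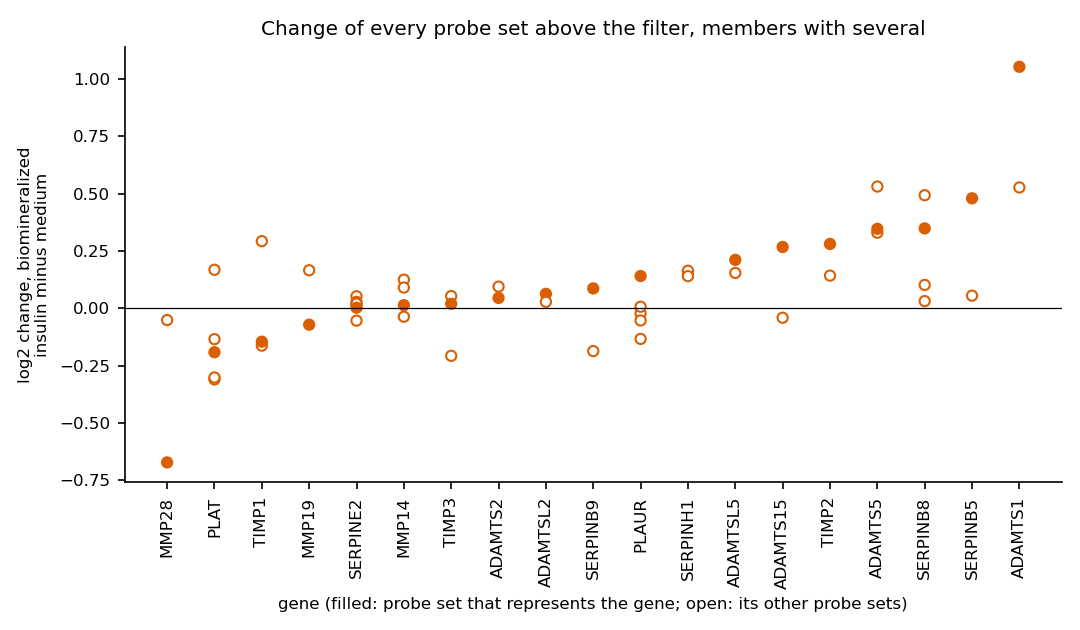
Log2 change of biomineralized insulin against medium (vertical axis) for each probe set above the filter, for the genes with several (horizontal axis); filled circles are the probe set that represents the gene, open circles the others. The probe sets of ADAMTS1 and ADAMTS5 lie above zero together, the second MMP28 probe set lies at −0.05 against −0.67, and those of PLAUR lie on both sides of zero.

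Among the serpins, 11 of 33 genes were above the filter, and 3 rose and 3 fell with biomineralized insulin. The share called against medium, 54.5%, lies near the 50.9% of all genes. SERPINB9P1, a transcribed pseudogene beside SERPINB9, gave 6.03, 5.83 and 5.85 in medium, 5.90, 5.78 and 5.86 with insulin and 5.14, 5.13 and 5.10 with biomineralized insulin. The fall of 0.78 ± 0.08 (SE; 1.72-fold; limma adjusted p = 3.4e-07) was the only one of at least 1.5-fold in this family. SERPINB1, an intracellular inhibitor of neutrophil proteases and a neighbour of SERPINB9P1, fell from 10.53, 10.67 and 10.59 to 10.24, 10.16 and 10.29 (0.37 ± 0.04, SE). SERPINB9, the granzyme B inhibitor at the same place, was not called (0.09), and its 2 probe sets differ in sign; whether probes of the pseudogene also bind transcripts of its parent was not tested.

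SERPINI1, or neuroserpin, an inhibitor of PLAT, fell by 0.52 ± 0.05 (SE; 8.25, 8.33 and 8.29 against 7.76, 7.73 and 7.81). SERPINB5, or maspin, read 10.05, 9.99 and 9.90 in medium, 10.12, 10.02 and 10.20 with insulin and 10.47, 10.41 and 10.50 with biomineralized insulin. It rose by 0.48 ± 0.05 (SE), its second probe set gave 0.06, and spike-in centring left 0.08 without a call. SERPINB8, an inhibitor of furin, rose by 0.35 ± 0.08 (SE; 7.22, 7.09 and 7.27 against 7.56, 7.45 and 7.61), or −0.05 with spike-in centring. The other 3 probe sets of SERPINB8 gave 0.49, 0.10 and 0.03.

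SERPINH1, the collagen chaperone HSP47 of the endoplasmic reticulum and not a protease inhibitor, gave 8.72, 8.61 and 8.75 in medium, 8.57, 8.59 and 8.55 with insulin and 8.84, 8.81 and 8.86 with biomineralized insulin. The insulin arrays are the lowest and the biomineralized insulin arrays the highest, with no overlap. Against medium the rise was 0.14 ± 0.05 (SE), lost without the second medium array or the third biomineralized insulin array (limma adjusted p = 0.10 and 0.054; 0.006 to 0.10 over 18 alternatives). Against insulin it was 0.27 ± 0.05 (SE), and spike-in centring turned both, to −0.26 and −0.12.

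SERPINE2, or protease nexin 1, a thrombin and urokinase inhibitor, gave 11.12, 11.20 and 11.15 in medium, 11.02, 11.07 and 11.06 with insulin and 11.12, 11.24 and 11.12 with biomineralized insulin. It was not called against medium (0.0029, 95% interval −0.07 to 0.08; −0.40 and called with spike-in centring). SERPINA4, SERPIND1 and SERPINF2, inhibitors made by hepatocytes for the plasma, were above the filter and not called, with changes of −0.06, −0.01 and 0.17.

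Soluble insulin by itself called 0 of the 39 members, where 2.45% of all genes were called. At an unadjusted p under 0.05, limma gave 7 of 39 (ADAMTS5, SERPINB5, SERPINB8, SERPINE2, SERPINH1, SPINK6 and TIMP4), where 15.8% of all genes reached it. With spike-in centring 0 of 39 reached it, and the share of all genes that did is not given here. At an adjusted p under 0.05 (limma), that centring called 0.0572% of all genes, so few calls are left anywhere in this setting. The largest of these differences were 0.25 for SPINK6 and −0.22 for TIMP4, and the median absolute change was 0.056 for the members and 0.056 for all genes. The groups did not overlap for 5 of 39 members, against 18.3% of all genes. Without the second insulin array, SERPINB5 alone was called.

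Between the preparations at the same insulin dose, biomineralized insulin called 24 of 39 members, 13 higher and 11 lower (61.5%, against 44.4% of all genes, 21.1% higher and 23.3% lower; limma). The groups did not overlap for 24 members, against 52.7% of all genes. The same 7 genes as against medium passed 1.5-fold, where 5.2% of all genes did: SPINK6 (1.42), ADAMTS1 (1.00), SPINK1 (0.73), ADAMTS6 (−1.33), MMP28 (−0.76), SERPINB9P1 (−0.72) and TIMP4 (−0.69). This comparison shares its arrays with the one against medium, so the repeat is not independent. Centring on the spike-in features, brighter by 0.39 than on the insulin arrays, left 3 higher (SPINK6, ADAMTS1 and SPINK1) and 25 lower, 71.8% of the members against 78.5% of all genes, again below the general share. The second probe set of ADAMTS1, at 0.51 against insulin in the deposited scaling, was not fitted with this centring.

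Several small calls of this comparison rest on single arrays or settings. ADAMTS15 (0.32), SERPINE2 (0.12) and TIMP3 (0.10) were called here and not against medium, and all turned with spike-in centring (−0.07, −0.27 and −0.28). The second probe set of ADAMTS15 gave −0.03, and its call was lost with the mean of probe sets and without the third insulin array or the first or the third biomineralized insulin array. That of SERPINE2 was lost with median centring, without the intensity trend, and without the first insulin array or the second biomineralized insulin array. ADAMTS5 was called in 10 of 19 alternatives, TIMP1 in 10 of 19, PLAT in 9 of 19 and TIMP3 in 7 of 19. Of the 3 probe sets of TIMP3, 1 gave −0.01. With the replicate number as a block, PLAT and TIMP3 lost their call (limma adjusted p = 0.067 and 0.051; 6.4e-06 to 0.17 and 0.0085 to 0.38 over 19 alternatives). ADAMTS9, MMP24 and SERPINB8, called against medium, were not called against insulin (0.16, −0.17 and 0.17).

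The other 56 genes lay below the filter, with means of 2.64 to 4.72 and a median of 3.63. They include the best-known proteases: collagenase MMP1 at 3.00, gelatinases MMP2 at 4.72 and MMP9 at 3.67, and matrilysin MMP7 at 3.92. They also include the plasma serpins of the liver: SERPINA1 gave 3.88, 3.91 and 3.71 in medium, 3.75, 3.88 and 3.88 with insulin and 3.88, 3.85 and 3.88 with biomineralized insulin, and SERPINC1 had group means of 3.91, 4.02 and 3.97. For reference, the 23 background features of the array had a median of 2.99, and 8 of them were above the filter. Fitted without the filter, 0 of the 56 were called by limma in any comparison, where 34.3% of all genes were called for biomineralized insulin against medium, 29.4% for biomineralized insulin against insulin and 1.17% for insulin against medium. At an unadjusted p under 0.05 there were 1 (ADAMTS13, 0.22), 4 (ADAMTS10, ADAMTS13, ADAMTSL4-AS1 and SERPINA13P) and 2 (ADAMTS19 and MMP13) in that order. The shares of all genes cover bright genes as well, and the share among other dim genes was not computed. Whether these 56 genes respond less than other dim genes was therefore not tested. Changes of biomineralized insulin against medium spanned −0.18 to 0.22.

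Some chromosomal clusters were largely dim, counting only the member genes analysed here, which may leave out neighbours. The run of 9 MMP genes that holds MMP1, MMP3 and MMP7 had 0 members above the filter, with means of 2.64 to 4.71. Of the 10 neighbouring SERPINA genes only SERPINA4 passed, at 4.86, and of the 9 SERPINB genes around SERPINB3 and SERPINB4 only SERPINB5 and SERPINB8. Just outside the filter were MMP2 (4.72), MMP13 (4.71) and ADAMTSL1 (4.61), and just inside it SERPINA4 (4.86), PLAU (4.89) and ADAMTS9 (4.94). The 5 members with the brightest probe sets were SERPINE2, TIMP1, TIMP2, SERPINB1 and SERPINB5, which does not rank their transcripts, since probes differ in how well they bind.

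Genes that work with these families but fall outside the symbol rule were tested in 4 lists, of which 63 of 94 genes were above the filter. With biomineralized insulin against medium 16 rose and 13 fell, with biomineralized insulin against insulin 13 rose and 12 fell, and with insulin against medium 2 rose, LRP8 (0.32) and BST2 (0.17). The shares called in the comparisons of biomineralized insulin, 46.0% against medium and 39.7% against insulin, lie below the 50.9% and 44.4% of all genes. Other metalloproteases gave 2 higher and 3 lower of 14, serine proteases 6 and 1 of 19, other inhibitors 4 and 3 of 17, and receptors and cofactors 4 and 6 of 13. The largest rises were SPOCK1, a matrix proteoglycan (1.76 ± 0.12, SE), the lipoprotein and reelin receptor LRP8 (1.12 ± 0.05), the secreted serine protease PRSS23 (1.10 ± 0.03) and S100A10, which with annexin A2 binds plasminogen at the cell surface (0.71 ± 0.04). The deepest falls were the lipoprotein receptor VLDLR (−1.20 ± 0.07), the broad protease trap A2M (−0.60 ± 0.09), the IGFBP-cleaving protease PAPPA (−0.50 ± 0.04) and SLPI, an elastase inhibitor (−0.45 ± 0.05).

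SPOCK1 rose from a mean near the filter, 4.79 ± 0.06 (SD, n = 3) in medium and 4.71 ± 0.19 with insulin, to 6.55 ± 0.24 with biomineralized insulin. PRSS23 went from 9.96 ± 0.01 and 10.00 ± 0.03 to 11.06 ± 0.04, with all 5 probe sets between 1.00 and 1.18. VLDLR went from 7.93 ± 0.09 and 7.85 ± 0.08 to 6.73 ± 0.14. The rises of SPOCK1, LRP8, PRSS23 and S100A10 all exceed the 0.40 by which the spike-in features differ. Whether they stay called with spike-in centring is not given here. Among the members, SPINK1 (0.61), SPINK4 (0.52) and SERPINB5 (0.48) exceed 0.40 too and lost their calls with it.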

How the data were processed

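Gene expression was measured on 9 arrays, 3 for each of 3 groups. The deposited table holds log2 signals per probe set, made by the authors; the software and normalization are not given in the sources used here. Of 49395 probe sets, 44988 carried 1 gene, 1832 several and 2473 none, and 102 were controls, by the platform annotation; symbols were updated to RefSeq. The dimmest 40% of probe sets by mean signal were dropped, and the brightest remaining probe set with 1 gene stood for each of 12239 genes.

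All 9 arrays were fitted together with limma 3.58.1 (lmFit, eBayes with an intensity trend) in R 4.3.3, without covariates; p-values were adjusted by Benjamini-Hochberg over all tested genes, with a threshold of 0.05. Tables used Python 3.11.15 and pandas 2.3.3. The fit was tested on simulated data. Correlations of deviations were −0.23 to 0.17 between arrays of the same replicate number and −0.36 to 0.34 between different numbers. With 3 arrays per group they cannot settle whether the numbers pair the arrays. Alternatives changed the block, the arrays fitted, scaling, filter, probe set rule and trend, and left out each array. The members and lists were chosen with earlier results of these data known. Named with values per array were members called with insulin, those called with at least 1.5-fold in either biomineralized insulin comparison, and PLAU, PLAT, PLAUR, SERPINE2, SERPINB2 (not analysed here), TIMP1 to TIMP3, MMP1, MMP2, MMP7, MMP9, MMP14, SERPINA1, SERPINC1, SERPINH1, SPINK1 and SPINK6; other members were to be given by range and count, the 5 brightest named, and of related lists the 4 largest rises and falls. Another 6 member probe sets match several genes (MMP23B with MMP23A, SERPINB3 with SERPINB4) and were left out of the counts.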

Additional observations from a re-analysis of the deposited data

How the results depend on the processing

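Of 19 alternatives, insulin against medium called 0 members in all but 1 (0 to 1 when single arrays were left out, SERPINB5 without the second insulin array). Of all genes, these alternatives called 0.0572% (spike-in centring) to 3.93% (dimmest 60% left out). Biomineralized insulin called 17 to 27 members against medium and 17 to 28 against insulin. The 17 in each were of only 20 tested with the dimmest 60% left out (85.0%). In that setting the share of all genes called also rose, to 62.2% against medium and 56.5% against insulin. Leaving out 1 array gave 20 to 26 and 20 to 24 members, where 45.0% to 51.4% and 39.7% to 45.4% of all genes were called. Of the 24 calls in each, 10 and 12 held in every alternative that could test the gene; 9 and 7 were lost in some and 7 and 10 turned in some. Whether the replicate numbers pair the arrays is not settled. The fit with the number as a replicate block called 0, 24 and 22 members, losing PLAT and TIMP3 in the last, and changed no other call. In that fit 1.85%, 49.7% and 43.3% of all genes were called.

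Centring on the spike-in features turned the split from 12 higher and 12 lower to 2 and 25 against medium, and from 13 and 11 to 3 and 25 against insulin. Values that changed sign there against medium, called in at least one scaling, were −0.36 for ADAMTS2, −0.057 for ADAMTS5, −0.11 for ADAMTS9, −0.34 for ADAMTSL2, −0.39 for ADAMTSL4, −0.39 for MMP14, −0.019 for MMP15, −0.37 for MMP17, −0.26 for PLAUR, −0.055 for SERPINB8, −0.32 for SERPINB9, −0.40 for SERPINE2, −0.26 for SERPINH1, −0.12 for TIMP2 and −0.38 for TIMP3; called in neither were −0.14 for ADAMTS15, −0.19 for ADAMTSL5, −0.24 for MMP11 and −0.23 for SERPINF2. Against insulin they were −0.070 for ADAMTS15, −0.33 for ADAMTS2, −0.20 for ADAMTS5, −0.32 for ADAMTSL2, −0.34 for ADAMTSL4, −0.26 for MMP11, −0.30 for MMP14, −0.054 for MMP15, −0.32 for MMP17, −0.28 for MMP19, −0.25 for PLAUR, −0.041 for SERPINB5, −0.36 for SERPINB9, −0.34 for SERPIND1, −0.27 for SERPINE2, −0.12 for SERPINH1, −0.017 for SPINK4, −0.13 for TIMP2 and −0.28 for TIMP3; called in neither were −0.23 for ADAMTS9, −0.23 for ADAMTSL5, −0.22 for SERPINB8 and −0.24 for SERPINF2. PLAUR also turned with the mean of probe sets (PLAUR, biomineralized insulin against medium, −0.012; PLAUR, biomineralized insulin against insulin, −0.0071) and without cross-hybridizing probe sets (−0.053 and −0.029). The spike-in signal itself shifts each change by construction; why it differed was not tested. Group means of SPINK1, ADAMTS6 and PLAU under the filter limit what can be said of the size of their folds.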
